A study of Mus musculus with 96 samples.

Results

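A set of 10 core circadian clock genes was followed through 16 tissues of wild-type and *Scx-/-* mice: the period genes *Per1*, *Per2* and *Per3*, the output factors *Dbp* and *Tef*, the nuclear receptor repressors *Nr1d1* and *Nr1d2*, and the activators *Arntl*, *Clock* and *Npas2*. They were chosen by symbol, with earlier results of these data known, and all 10 were found among the 41575 gene symbols of the count table. The study asked how loss of *Scx*, which encodes the tendon and ligament transcription factor scleraxis, alters expression across the organs of mice aged 3 weeks. Each tissue and genotype was measured in 3 libraries by MuSeq, a bulk RNA-seq method that barcodes each sample and enriches for transcript 3′ ends, which gave 96 libraries in 32 groups. The genotypes are labelled wild-type and *Scx-/-*, without a description of the *Scx* allele. The sources used here give neither the time of day at necropsy nor the sex of the animals, and they do not say whether tissues were taken from shared mice, so *p*-values measure only the spread between libraries.

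The mammalian clock is a feedback loop of transcription. ARNTL (also called BMAL1) pairs with CLOCK or NPAS2 and activates genes through E-boxes, among them the period genes, *Dbp*, *Tef* and the genes for the REV-ERB receptors NR1D1 and NR1D2. Period proteins repress that activation, REV-ERB proteins repress *Arntl* through ROR elements, and DBP and TEF carry the rhythm to genes with D-boxes, so that repressors and outputs on the one side and *Arntl* on the other peak at opposite times of day in most peripheral tissues.

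The upstream sequences of *Per1*, *Tef* and *Nr1d2* are shown because they hold matches to motifs named for this loop, the first 2 to the E-box and that of *Nr1d2* to the ROR element alone. A match is a description, not a binding site. RefSeq windows on GRCm38.p6, from 250 bases before to 50 bases after a transcript start, were at hand for 9 of the 10 genes (14 windows). Both strands were searched, and capitals mark the E-box CACGTG and the ROR element core AGGTCA, which reads TGACCT where it lies on the other strand. Bases of annotated exons were left off.
Per1, chr11:69098699-69098947, plus strand: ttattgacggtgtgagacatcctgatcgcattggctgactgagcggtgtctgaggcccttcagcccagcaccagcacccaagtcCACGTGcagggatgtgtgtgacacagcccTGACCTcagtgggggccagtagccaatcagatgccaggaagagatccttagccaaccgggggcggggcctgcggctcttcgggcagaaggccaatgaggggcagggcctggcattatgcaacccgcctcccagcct
Tef, chr15:81811164-81811413, plus strand: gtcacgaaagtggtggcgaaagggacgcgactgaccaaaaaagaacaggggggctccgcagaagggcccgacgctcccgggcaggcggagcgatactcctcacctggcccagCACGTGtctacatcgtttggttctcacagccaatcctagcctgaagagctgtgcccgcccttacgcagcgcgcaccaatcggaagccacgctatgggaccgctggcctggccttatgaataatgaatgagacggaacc
Nr1d2, chr14:18239128-18239356, minus strand: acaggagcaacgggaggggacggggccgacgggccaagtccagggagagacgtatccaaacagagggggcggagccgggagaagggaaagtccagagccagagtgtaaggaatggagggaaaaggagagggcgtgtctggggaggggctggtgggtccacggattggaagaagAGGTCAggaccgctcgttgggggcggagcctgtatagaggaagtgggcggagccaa
The E-box of *Per1* starts 166 bases before its transcript start, and the E-box in the *Tef* window shown starts 138 bases before. A further *Tef* window, which lies in an annotated exon and is not shown, holds an E-box 127 bases before its start. In all, 3 of the 14 windows hold CACGTG, against 7.15% of 32851 RefSeq promoter windows of the same length. AGGTCA was found in 4 of the 14 windows, those of *Per1*, *Nr1d2*, *Clock* and *Arntl*, against 16.3% of all windows. The D-box TTANGTAA was found in 1 window, that of *Per3*, against 2.32%.

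Library totals ran from 11244 to 1658192 counts (median 251640), and 16 libraries held fewer than 100000, so that 1 count was worth 3.97 CPM (counts scaled to a common library total) at the median and 88.9 CPM in the shallowest library. In 7 tissues, the ranges of the totals of the 2 genotypes were separate. *Scx* itself had 80 counts in 12 of 48 wild-type libraries and 9 counts in 1 of 48 libraries labelled *Scx-/-*, cartilage replicate 1. That library went against its label unless the allele still gives reads at its 3′ end, which was not tested. Genes defining the labelled tissue were above their level in all other tissues for 10 of the 16 tissues. The exceptions were adipose, cartilage, cortex, hippocampus, rectum and vascular samples, and the adipose libraries held only 5.99 to 124 CPM of 5 adipocyte genes but 236631 to 324651 CPM of 5 pancreatic acinar genes. They are called adipose here by their label alone. The cartilage libraries held 95035 to 117161 CPM of 5 skeletal muscle genes and 1746 to 12694 CPM of 4 cartilage genes. Bone libraries held 17648 to 72128 CPM of the same muscle genes. Cartilage and bone are likewise named by label.

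Clock genes were scarce in these libraries. *Tef* had the most counts (3542 in 96 libraries), *Per1* was present in the most libraries (87 of 96), and *Per3* had 18 counts in 2 libraries. Over all tissues, the summed level was higher in *Scx-/-* than in wild-type libraries for *Tef* (121 against 88.2 CPM), *Nr1d1* (40.4 against 26.2), *Nr1d2* (52.4 against 40.4), *Dbp* (51.8 against 42.4), *Per1* (49.7 against 44.7) and *Per2* (22.8 against 19.8). It was lower for *Clock* (40.6 against 54.1 CPM), *Arntl* (11.4 against 18.4) and *Npas2* (14.2 against 16.2). These sums weight deep libraries most and are descriptions. No clock gene passed an adjusted *p* of 0.05 in a single tissue or over all tissues.

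**Figure D1:**
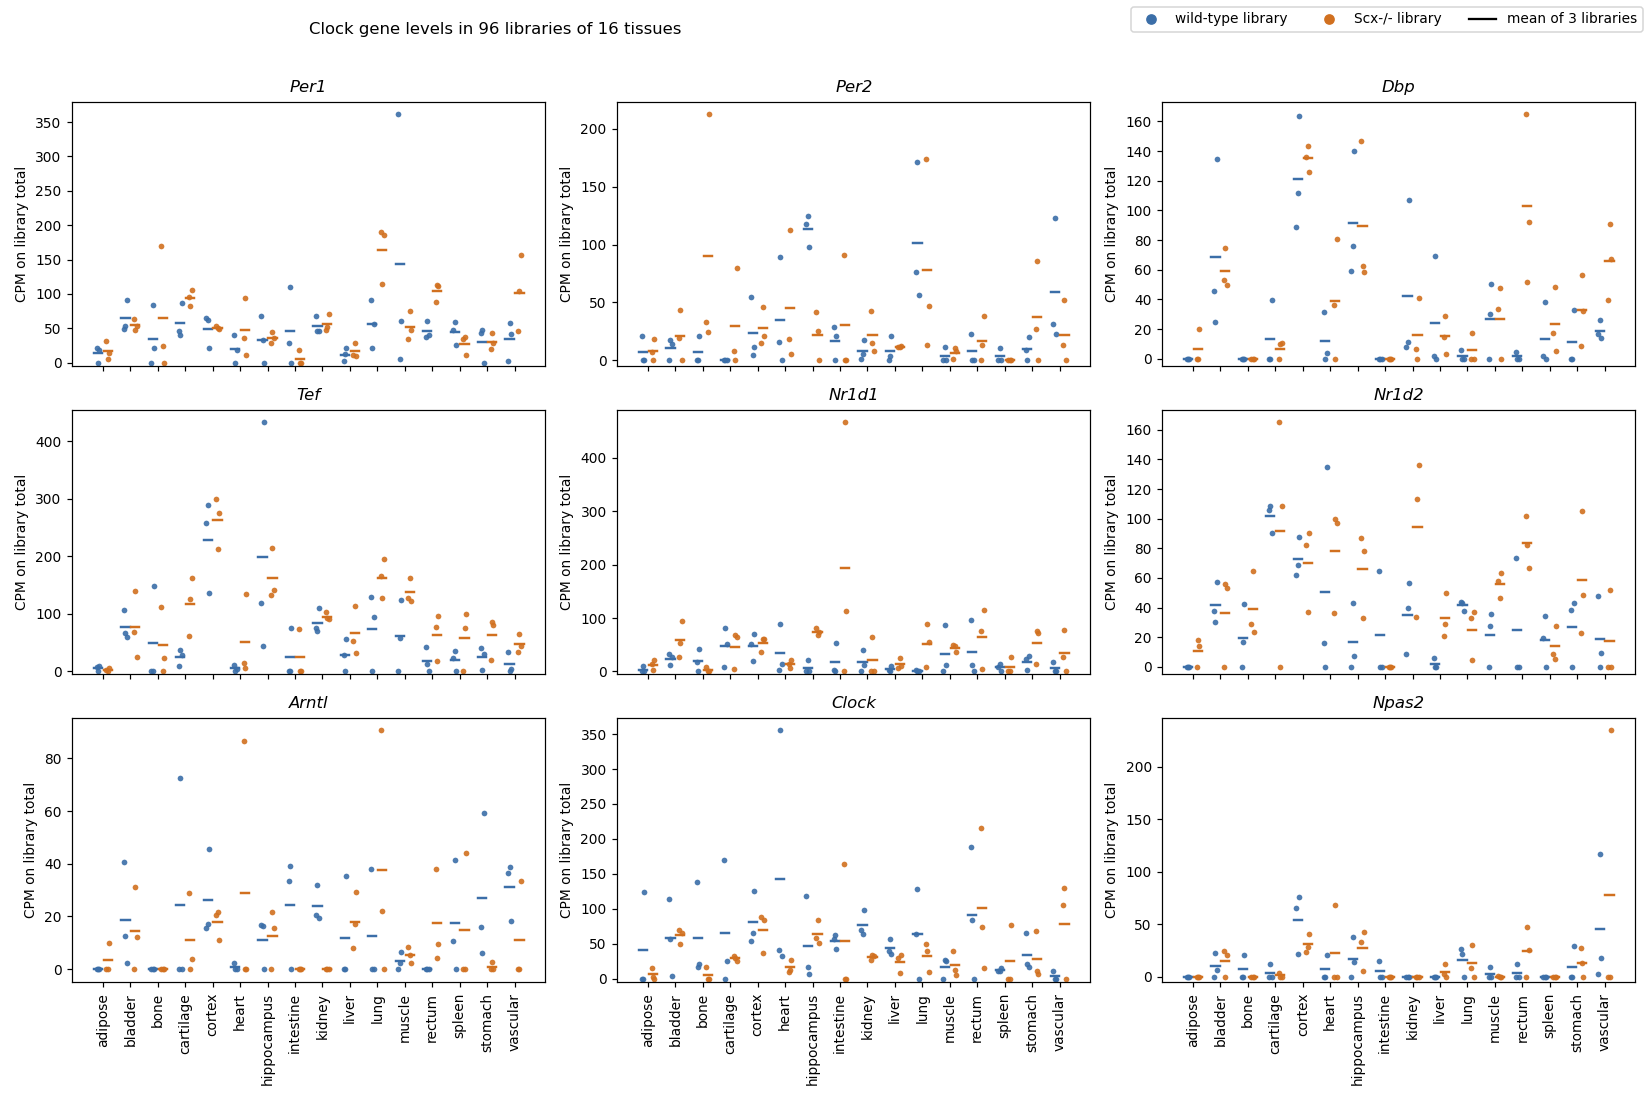
Level of 9 clock genes in every library, in CPM on the library total (vertical axis, linear, scaled per gene), by tissue (horizontal axis), with wild-type libraries in blue, *Scx-/-* libraries in orange and lines at the mean of 3 libraries. *Dbp* and *Tef* were highest in cortex and hippocampus in wild-type mice, and in most tissues the points of the genotypes overlapped.

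*Per1* and *Per2* encode repressors of the ARNTL complex, and *Per1* is also induced acutely by glucocorticoids and other signals. In lung, *Per1* was at 90.7, 21.4 and 56.4 CPM in wild-type libraries and at 190, 114 and 186 CPM in *Scx-/-* libraries. The wild-type lung libraries held 46732 to 341964 counts, so low values there rest on few counts. In rectum it was at 36.8, 60.1 and 40.2 CPM in wild-type and at 88.9, 113 and 111 CPM in *Scx-/-* libraries. All *Scx-/-* libraries were above all wild-type libraries in these 2 tissues, a separation seen for 4.11% of all gene and tissue pairs (3.86% in the other direction). Among *Scx-/-* tissues lung had the highest mean of the gene (164 ± 42.7 CPM, SD, n = 3). Its lowest library (114 CPM) was just above the highest of rectum (113 CPM), the next in order. *Scx-/-* bone and vascular libraries reached 170 and 156 CPM. The fitted log2 differences were 1.55 (SE 1.22) in lung and 1.34 (SE 1.51) in rectum, with adjusted *p* of 0.741 and 0.782 by the quasi-likelihood test of edgeR, adjusted after Benjamini and Hochberg over all genes of the tissue. In lung, 5 surfactant and airway genes summed to 60858 to 74856 CPM in wild-type and 83406 to 98610 CPM in *Scx-/-* libraries, and their part in the *Per1* difference was not tested. In rectum, 5 skeletal muscle genes summed to 212 to 3718 CPM in wild-type and 5565 to 8575 CPM in *Scx-/-* libraries, and 5 smooth muscle and endothelial genes to 11575 to 13551 and 1359 to 10902 CPM. There, 5 liver genes summed to 212 to 382 and 88.9 to 199 CPM, and 5 hippocampus genes to 20.1 to 48.1 and 52.0 to 92.3 CPM. The part of these 4 lists was not tested either. Among wild-type tissues *Per1* was highest in muscle, where the level rested on 1 library (362, 5.74 and 61.2 CPM) and the range overlapped that of *Scx-/-* lung. Across tissues, the *Scx-/-* mean of *Per1* was higher in 12 of 16.

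*Per2* libraries of the genotypes separated in opposite directions in hippocampus and bone, and neither difference passed. Hippocampus had 118, 125 and 97.9 CPM in wild-type libraries and 41.4, 25.4 and 0 CPM in *Scx-/-* libraries, a log2 difference of -2.11 (SE 1.26, adjusted *p* = 0.762, edgeR). Bone had 0, 0 and 21.2 CPM in wild-type libraries and 33.3, 24.1 and 213 CPM in *Scx-/-* libraries (log2 difference 3.51, SE 2.54, adjusted *p* = 0.636, edgeR). The genotypes did not overlap in either tissue, although the lowest *Scx-/-* bone library stood close to the highest wild-type one. Bone libraries held only 47131 to 115368 counts in wild-type and 42272 to 240564 in *Scx-/-* mice. In bone, genes of other tissues differed as well: 5 adipocyte genes summed to 113 to 276 CPM in wild-type and 648 to 1277 CPM in *Scx-/-* libraries, 4 brown fat genes to 26.0 to 276 and 435 to 591 CPM, 5 spleen genes to 0 to 165 and 233 to 473 CPM, 5 rectum genes to 0 to 21.2 and 71.0 to 483 CPM, and 5 kidney tubule genes to 468 to 1322 and 87.3 to 213 CPM. In hippocampus, the adipocyte genes summed to 21.0 to 118 CPM in wild-type and 2.07 to 13.7 CPM in *Scx-/-* libraries, the brown fat genes to 16.2 to 92.8 and 3.92 to 6.21 CPM, and the spleen genes to 6.99 to 25.3 and 0 to 3.92 CPM. Their part in the *Per2* differences was not tested. In cartilage, *Per2* was at 0 in all wild-type libraries and at 8.27, 0 and 79.7 CPM in *Scx-/-* libraries, so that the difference rested on replicate 3, and without it 2 counts were left. Its log2 difference was 5.89 (SE 2.83, adjusted *p* = 0.769, edgeR), 3.21 without that library and 6.36 without *Scx-/-* cartilage replicate 1. In cartilage, 5 pancreatic acinar genes summed to 250 to 702 CPM in wild-type and 1437 to 1956 CPM in *Scx-/-* libraries, and 5 cardiac genes to 207 to 351 and 24.3 to 50.7 CPM. The part of these and of the skeletal muscle genes given above was not tested. *Per3*, the remaining period gene, had 10 counts in 1 wild-type muscle library and 8 counts in 1 *Scx-/-* vascular library and was at 0 elsewhere. A floor of 3 counts in a group of 3 libraries correspond to between 0.880 CPM (*Scx-/-* cortex) and 26.9 CPM (*Scx-/-* intestine), so low levels of *Per3* were not detectable at this depth.

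*Dbp* and *Tef* encode PAR bZIP factors whose messages are among the most strongly rhythmic in mammalian tissues. Wild-type *Dbp* was highest in cortex (122 ± 38.5 CPM, SD, n = 3) and hippocampus (91.6 ± 42.7), whose libraries overlapped, and it was at 0 in all libraries of adipose, bone and intestine. Wild-type *Tef* was also highest in cortex (228 ± 80.9 CPM) and hippocampus (198 ± 207), the latter with 1 library at 434 CPM. In *Scx-/-* mice *Tef* again led in cortex (263 ± 44.9 CPM). Of the 10 genes, 4 had their highest wild-type mean in cortex or hippocampus, the other two being *Per2* and *Npas2*.

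Between genotypes, *Dbp* passed the study's thresholds (unadjusted *p* under 0.05 and |log2 fold change| above 1) in rectum, where it had 4.60, 0 and 0 CPM in wild-type libraries and 165, 52.0 and 92.3 CPM in *Scx-/-* libraries, with no overlap. The log2 difference was 4.99 (SE 2.19), and the adjusted *p* of edgeR was 0.706. Without wild-type replicate 1, the only wild-type rectum library with a *Dbp* count, the fitted value was 6.91. The exons of *Dbp* (chr7:45705088-45710203, plus strand, GRCm38) share their last 539 bases with exons of *Sphk2* on the other strand, and the strand setting of the counting is not given, so reads of these genes cannot be told apart there. *Sphk2* was at 32.2, 48.1 and 40.2 CPM in wild-type and at 102, 99.7 and 89.2 CPM in *Scx-/-* rectum. The muscle, endothelial, liver and hippocampus genes that differed in the same libraries are given above for *Per1*. Their part in the *Dbp* difference was not tested, and in bulk tissue fewer cells of a type and less RNA per cell cannot be told apart. In vascular samples *Dbp* was at 16.9, 25.9 and 13.7 CPM in wild-type and at 39.3, 90.8 and 67.1 CPM in *Scx-/-* libraries, also with no overlap (log2 difference 1.36, SE 2.03, adjusted *p* = 0.851, edgeR). The study left the vascular samples out as contaminated by brown fat, and 4 brown fat genes summed to 7086 to 13148 CPM in their wild-type and 3499 to 6143 CPM in their *Scx-/-* libraries. In these libraries 5 cortex genes summed to 0 to 6.47 and 11.2 to 25.9 CPM, and 5 rectum genes to 12.9 to 33.8 and 0 to 6.55 CPM. The part of these genes was not tested.

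*Tef* in cartilage was at 9.18, 36.3 and 29.0 CPM in wild-type and at 62.0, 127 and 163 CPM in *Scx-/-* libraries. Every *Scx-/-* library was above every wild-type library, with a log2 difference of 2.27 (SE 1.14, adjusted *p* = 0.769, edgeR). Without *Scx-/-* cartilage replicate 1, the library with *Scx* counts, the difference was 2.58 (SE 1.22). The part of the pancreatic acinar and cardiac genes that differed in these cartilage libraries was not tested for *Tef* either. The 5 skeletal muscle genes summed to 95035 to 106470 CPM in wild-type and 96675 to 117161 CPM in *Scx-/-* cartilage libraries. The part of muscle in the *Tef* difference was not tested. The *Scx-/-* mean of *Tef* was higher in 12 of 16 tissues, among them muscle (wild-type 60.6 ± 62.3 CPM, *Scx-/-* 137 ± 22.3 CPM) and lung (wild-type 74.2 ± 66.6 CPM, *Scx-/-* 163 ± 34.2 CPM).

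*Nr1d1* and *Nr1d2* encode the heme-binding REV-ERB repressors. In hippocampus *Nr1d1* was at 0, 21.7 and 0 CPM in wild-type and at 80.7, 68.4 and 74.4 CPM in *Scx-/-* libraries. In lung it was at 2.92, 0 and 0 CPM in wild-type and at 8.26, 87.9 and 55.9 CPM in *Scx-/-* libraries. The genotypes did not overlap in either tissue, with log2 differences of 3.26 (SE 1.74, adjusted *p* = 0.762) and 4.42 (SE 2.46, adjusted *p* = 0.741) by edgeR. Lung libraries held 46732 to 341964 counts (median 53197) in wild-type and 107301 to 227467 in *Scx-/-* mice. In wild-type lung libraries at or below that median, 1 count was worth more than the lowest *Scx-/-* value, so the separation in lung rested on few counts. Exons of *Nr1d1* (chr11:98767932-98775333, minus strand, GRCm38) share 263 bases near their 3′ end with *Thra* on the other strand. Reads of these genes cannot be told apart there, as the strand setting is not given. *Thra* had 7888 counts in 96 libraries and *Nr1d1* 1130. The levels of *Thra* in the genotypes overlapped in hippocampus and lung. The part of the adipocyte, brown fat and spleen genes in hippocampus and of the surfactant and airway genes in lung, given above, was not tested for *Nr1d1* either. The *Scx-/-* mean of *Nr1d1* was higher in 13 of 16 tissues, and the value in *Scx-/-* intestine (0, 466 and 113 CPM) came from libraries of 26500 to 54955 counts.

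*Nr1d2* was at 6.23, 0 and 0 CPM in wild-type liver and at 20.8, 28.9 and 49.99 CPM in *Scx-/-* liver (log2 difference 3.73, SE 1.72, adjusted *p* = 0.746, edgeR). In kidney it was at 8.86, 39.8 and 56.5 CPM in wild-type and at 33.5, 114 and 136 CPM in *Scx-/-* libraries (log2 difference 1.32, SE 0.67, adjusted *p* = 0.791, edgeR). Without wild-type replicate 1, the only wild-type liver library with an *Nr1d2* count, the fitted log2 difference in liver was 7.09, and without wild-type replicate 1 in kidney it was 0.86. In the liver libraries 5 stomach genes summed to 254 to 595 CPM in wild-type and 160 to 234 CPM in *Scx-/-* samples, and their part was not tested. The liver groups did not overlap, while the lowest *Scx-/-* kidney library lay within the wild-type range. In muscle the levels were 0, 27.5 and 35.9 CPM in wild-type and 58.1, 46.6 and 63.5 CPM in *Scx-/-* libraries, without overlap (log2 difference 1.24, SE 0.97, adjusted *p* = 0.773, edgeR). In these muscle libraries 5 intestine genes summed to 0 CPM in wild-type and 1.15 to 44.0 CPM in *Scx-/-* samples, and their part was not tested. Lung went the other way, with 43.9, 42.8 and 37.6 CPM in wild-type and 33.1, 4.40 and 37.3 CPM in *Scx-/-* libraries, the highest of which was just under the lowest wild-type value. The log2 difference there was -0.57 (SE 2.02, adjusted *p* = 0.978, edgeR).

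Among the activators, *Clock* had 1583 counts in 80 of 96 libraries, while *Arntl* (495 counts in 52 libraries) and *Npas2* (509 counts in 39) were scarcer than all other members but *Per3*. *Arntl*, which the loop cannot do without, was found in 27 of 48 wild-type and 25 of 48 *Scx-/-* libraries, and its most complete contrast was in kidney. Kidney libraries held 21, 28 and 13 *Arntl* counts in wild-type mice (20.7, 31.8 and 19.3 CPM) and 0 counts in all 3 *Scx-/-* libraries. With 3 counts over all *Scx-/-* kidney libraries as the detection floor, the pooled wild-type level of *Arntl* was 8.17-fold above that floor. Leaving out each wild-type library gave 6.82 to 8.94. This floor covers counting error only, not the spread between libraries. The fitted log2 difference was -6.88 (SE 2.51). The unadjusted *p* of edgeR was 0.00616, the smallest of any clock gene in any tissue, and the adjusted *p* was 0.632. *Clock*, the partner of *Arntl*, was at 69.9, 63.6 and 98.2 CPM in wild-type kidney and at 26.8, 33.8 and 33.0 CPM in *Scx-/-* kidney, again without overlap, as for 10.7% of all genes in kidney (log2 difference -1.41, SE 0.74, adjusted *p* = 0.791, edgeR). *Npas2* was at 0 in all kidney libraries. Wild-type kidney libraries were deeper (672218 to 1015500 counts) than *Scx-/-* ones (242429 to 447350), and 5 kidney tubule genes summed to 23710 to 33179 CPM in wild-type and 18146 to 20472 CPM in *Scx-/-* libraries. The part of these differences was not tested.

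*Arntl* in stomach was at 15.9, 5.98 and 59.4 CPM in wild-type and at 0, 2.69 and 0 CPM in *Scx-/-* libraries (log2 difference -4.59, SE 2.29, adjusted *p* = 0.797, edgeR). The fitted value was -3.39 without wild-type replicate 3, the highest library, and -6.46 without *Scx-/-* replicate 2, the only *Scx-/-* stomach library with a count. In the same stomach libraries, 5 pancreatic acinar genes summed to 188 to 447 CPM in wild-type and 599.9 to 15786 CPM in *Scx-/-* samples, and their part was not tested. Rectum went the opposite way, with 0 in all wild-type libraries and 38.1, 4.33 and 9.55 CPM in *Scx-/-* libraries, which rested on 7 counts. *Clock* was lower in *Scx-/-* libraries without overlap in 4 tissues, kidney, liver, heart and bone, and higher without overlap in none, against 3.86% and 4.11% of all gene and tissue pairs. Liver had 39.5, 57.1 and 35.3 CPM in wild-type and 29.9, 8.51 and 34.5 CPM in *Scx-/-* libraries, so that the margin between the groups was narrow. In bone the margin was narrower still, with 139, 16.7 and 21.2 CPM in wild-type and 16.6, 0 and 0 CPM in *Scx-/-* libraries of 42272 to 240564 counts. Heart had 40.9, 356 and 31.97 CPM in wild-type and 9.13, 12.5 and 26.9 CPM in *Scx-/-* libraries, and the value of 356 CPM was 4 counts in the shallowest library of the series. In these heart libraries 5 kidney tubule genes summed to 86.4 to 4891 CPM in wild-type and 41.1 to 75.1 CPM in *Scx-/-* samples, and 5 hippocampus genes to 0 to 117 and 119 to 219 CPM. The part of these genes was not tested. *Npas2*, which can stand in for *Clock* and is best known from the forebrain, had its highest wild-type mean in cortex (54.4 ± 28.8 CPM, n = 3), overlapping vascular samples, where 1 library of 116 CPM made up most of the mean.

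**Figure D2:**
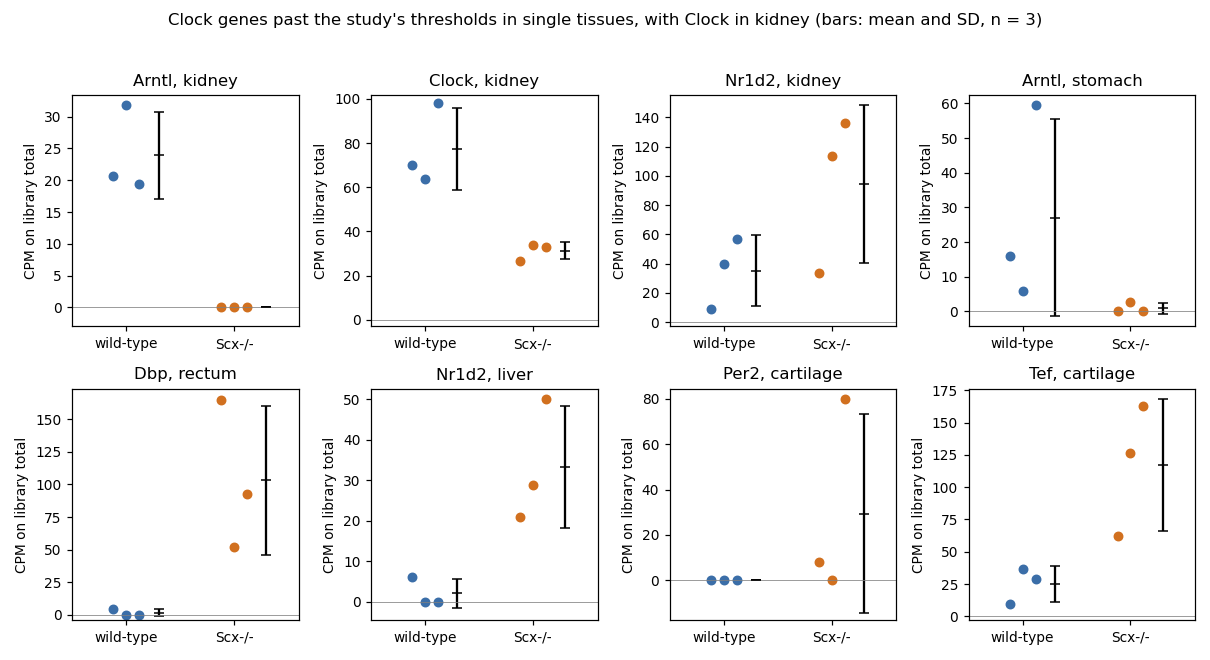
Level in CPM on the library total (vertical axis, linear) of the 7 gene and tissue pairs past the study's thresholds and of *Clock* in kidney, with wild-type libraries in blue, *Scx-/-* libraries in orange and the mean with its SD (n = 3) as bars. *Arntl* in *Scx-/-* kidney was at 0 in all 3 libraries, and *Per2* in cartilage rested on 1 library.

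Set over all single tissues, 140 of the 160 gene and tissue pairs had a count and were tested, and 34 pairs had a group at 0, both groups in 20 of them (14 of *Per3*'s 16 tissues among these) and 1 group in 14. By edgeR, 0 of 140 passed an adjusted *p* of 0.05, against 0.0914% of all gene and tissue pairs, and DESeq2 also gave 0. An unadjusted *p* under 0.05 was reached by 7 pairs, all of which also passed the study's thresholds given above. That is 5% of the pairs, against 3.71% of all pairs (1.85% in each direction), with 5 higher in *Scx-/-* mice (*Dbp* in rectum, *Nr1d2* in liver and kidney, *Per2* and *Tef* in cartilage) and 2 lower (*Arntl* in kidney and stomach). *Scx-/-* libraries were above wild-type libraries without overlap in 11 pairs (7.86%, against 4.11% of all pairs) and below them in 8 (5.71%, against 3.86%). Among genes with a count in at least 24 libraries, the shares were 4.68% and 4.48%, and 22.1% of these genes separated in both directions in different tissues, as did 3 of the 9 clock genes among them (*Per2*, *Nr1d2* and *Arntl*). The share at the study's thresholds was thus near that of all genes. With DESeq2, the study's tool, 7 pairs passed these thresholds, 5 of them among the 7 found by edgeR.

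All 96 libraries were then used in a model with a level for each tissue and 1 genotype term, fitted to 12097 genes with a count in at least 24 libraries. This model was chosen after the data were seen, because the mean of 16 separate tissue differences is not finite for a gene with an empty group. *Tef* was 1.76-fold higher in *Scx-/-* mice (95% confidence interval 1.29 to 2.41, log2 0.82, SE 0.23) and *Nr1d1* 1.89-fold higher (1.28 to 2.78, log2 0.92, SE 0.28). Their unadjusted *p* were 0.000428 and 0.00138, ranks 67 and 122 among all genes, and their adjusted *p* 0.0760 and 0.137 by edgeR, so neither passed. The part of reads shared with *Thra* (log2 0.27, SE 0.17) in the *Nr1d1* estimate was not tested. *Nr1d2* had a log2 difference of 0.55 (SE 0.26, adjusted *p* = 0.508), *Per2* of 0.48 (SE 0.32, 0.725), *Per1* of 0.39 (SE 0.23, 0.664) and *Dbp* of 0.35 (SE 0.30, 0.806). The activators *Arntl* (log2 -0.44, SE 0.36, adjusted *p* = 0.801), *Clock* (-0.33, SE 0.26, 0.783) and *Npas2* (0.17, SE 0.41, 0.947) did not pass either. The 95% confidence intervals of *Per1*, *Per2*, *Dbp* and all 3 activators included 0.

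By edgeR, 0 of 9 fitted clock genes passed an adjusted *p* of 0.05, against 0.455% of all genes, and limma-voom also gave 0. An unadjusted *p* under 0.05 was reached by 3 (*Tef*, *Nr1d1*, *Nr1d2*), against 8.97% of all genes. All 3 were higher in *Scx-/-* mice, a direction that 5.05% of all genes showed at that *p*. The clock genes were chosen with earlier results of these data known, which limits what these shares can show. All 6 fitted repressors and outputs had an estimate above 0, with a median of 0.51, and 1 of 3 activators did, with a median of -0.33, while 51.4% of all genes were above 0 with a median of 0.013. In the mean of 16 tissue differences, which was finite for 2537 genes, *Tef* (log2 0.92, SE 0.30, adjusted *p* = 0.123), *Nr1d1* (1.22, SE 0.43, 0.180), *Per1* (0.36, SE 0.34, 0.768) and *Clock* (-0.36, SE 0.29, 0.725) could be tested by edgeR. None of the 4 passed, against 0.788% of those genes, and 2 had an unadjusted *p* under 0.05, against 9.74%. With limma-voom, which gave values for 9 clock genes, 0 passed. A test of whether the genotype difference varied between tissues called 0 of 9 clock genes by edgeR, against 0.0744% of all genes. None had an unadjusted *p* under 0.05 in that test, against 7.69% of all genes, and *Arntl* came closest (adjusted *p* = 0.690).

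**Figure D3:**
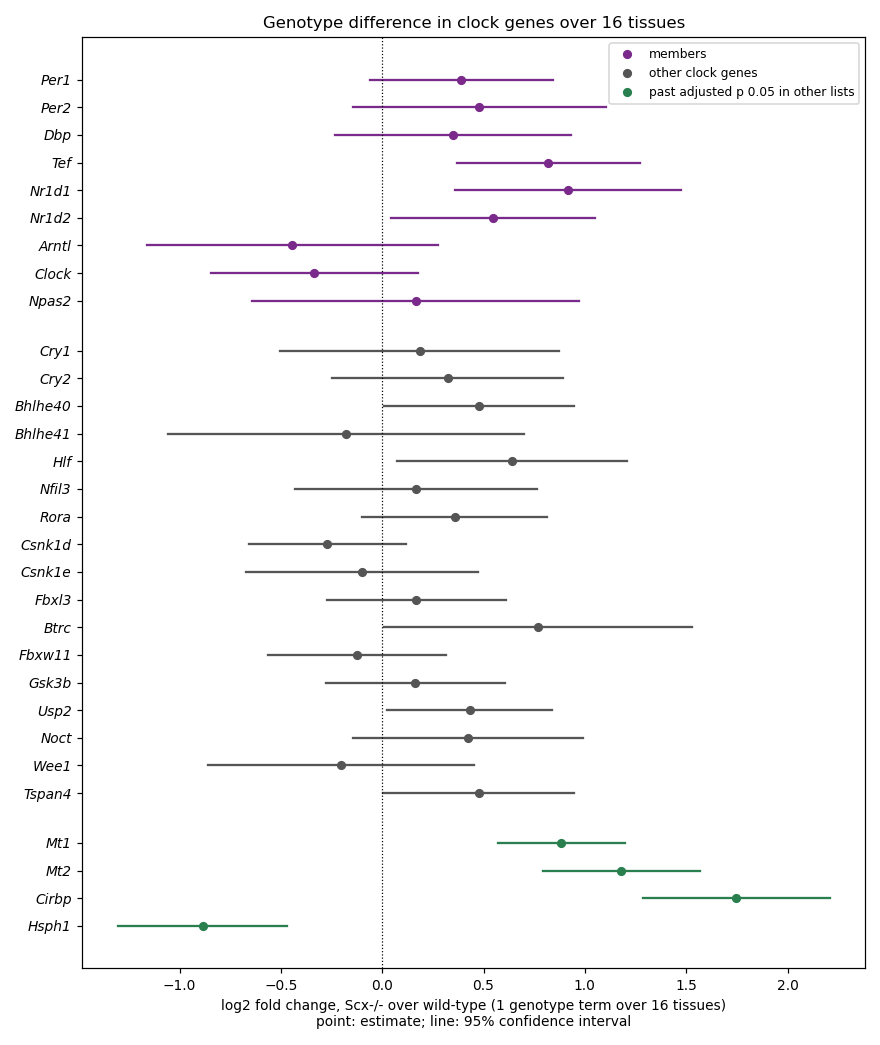
Log2 fold change of *Scx-/-* over wild-type mice (horizontal axis) from the model with 1 genotype term over 16 tissues, as points with 95% confidence intervals, for 9 members (purple), other clock genes (grey) and 4 genes of other lists past an adjusted *p* of 0.05 (green). Intervals of *Tef*, *Nr1d1* and *Nr1d2* lay above 0, and those of *Per1*, *Per2*, *Dbp*, *Arntl*, *Clock* and *Npas2* included it.

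Counted by tissue, the *Scx-/-* mean was higher in at least 12 of 16 tissues for *Per1*, *Per2*, *Tef* and *Nr1d1*, that is for 4 of 9 genes, against 3.7% of the 12097 genes. At least 13 tissues were reached by *Nr1d1*, against 1.17% of all genes. Without the adipose libraries, the count was 11 of 15 tissues for *Per1* and *Per2* and 12 of 15 for *Tef* and *Nr1d1*. Tissues may share mice and are not independent replicates, and the genes were chosen with earlier results of these data known. The summed level of the 7 repressors and outputs had a higher mean in *Scx-/-* mice in 15 of 16 tissues, hippocampus being the exception (14 of 15 without adipose), and in liver, lung and rectum the genotypes did not overlap. In lung this sum was 348, 235 and 244 CPM in wild-type and 570, 365 and 522 CPM in *Scx-/-* libraries. The summed level of the 3 activators had a lower mean in *Scx-/-* mice in 10 of 16 tissues and did not overlap in bone and kidney. In bone the lowest wild-type library (16.7 CPM) and the highest *Scx-/-* library (16.6 CPM) were nearly level. In kidney it was 90.6, 95.5 and 118 CPM in wild-type and 26.8, 33.8 and 33.0 CPM in *Scx-/-* libraries. The sums are descriptions and were not tested, and sums of other genes were not computed, so nothing particular to the clock genes can be read from these counts.

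**Figure D4:**
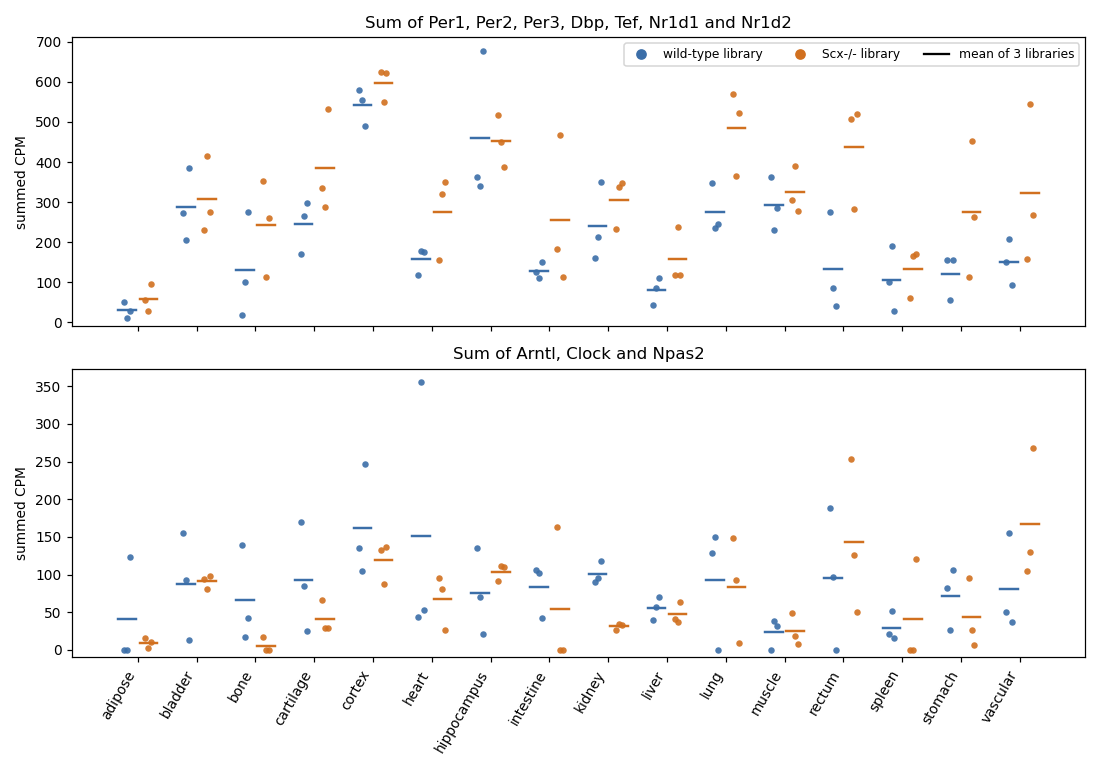
Summed CPM (vertical axes, linear) of the 7 repressors and outputs (top) and the 3 activators (bottom) in every library by tissue, with wild-type libraries in blue, *Scx-/-* libraries in orange and lines at the mean of 3. The top sum had a higher *Scx-/-* mean in 15 of 16 tissues, and the bottom sum a lower one in 10 of 16.

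Of 22 other clock genes, 18 were fitted and 0 passed by edgeR, 6 had an unadjusted *p* under 0.05, all higher in *Scx-/-* mice, and 13 were above 0 (median 0.25). Over all genes, 0.455% passed, 8.97% had an unadjusted *p* under 0.05, 5.05% did so as higher in *Scx-/-* mice, and 51.4% were above 0. Among them were *Hlf*, which encodes another PAR bZIP factor (log2 0.64), *Bhlhe40* (0.48), *Btrc* (0.77), *Usp2* (0.43) and *Tspan4* (0.48). The cryptochrome genes *Cry1*, whose protein is the strongest repressor of the loop (0.19, SE 0.35, adjusted *p* = 0.930), and *Cry2* (0.32, SE 0.29, 0.816) did not pass. Period genes also respond to glucocorticoids, to acute stimuli and to temperature, and genes for these were read beside them. Of 8 fitted glucocorticoid-responsive genes, the metallothionein genes *Mt1* (log2 0.88, adjusted *p* = 0.000261) and *Mt2* (1.18, adjusted *p* = 5.51e-05) rose by edgeR, 5 had an unadjusted *p* under 0.05 and 7 were above 0. None of 9 immediate early genes passed by edgeR, with 3 at an unadjusted *p* under 0.05. Of 6 fitted temperature-responsive genes, the cold-inducible *Cirbp* rose (log2 1.75, adjusted *p* = 6.05e-09) and the heat shock gene *Hsph1* fell (-0.89, adjusted *p* = 0.0151) by edgeR, with 3 of the 6 at an unadjusted *p* under 0.05 and 2 above 0. The same shares of all genes hold for these lists, which were also chosen with earlier results of these data known. Their part in the clock gene estimates was not tested.

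Over tissues, the genes whose log2 differences were most like those of *Dbp* were *Hscb* (Pearson's r = 0.93), *Acot1* (0.86) and *Stx16* (0.86), over 14 tissues. For *Nr1d1* they were *Umad1* (0.81), *Copb2* (0.80) and *Rabif* (0.80) over 16 tissues, and for *Arntl* they were *Arhgap39* (0.85), *Fbxo31* (0.80) and *Mnat1* (0.80) over 15. Among the other clock genes compared with them, r ran no higher than 0.47 for *Dbp* (with *Per1*), 0.33 for *Nr1d1* (with *Clock*) and 0.55 for *Arntl* (with *Per1*). None of the 3 most alike genes was a clock gene. All genes of a tissue share its libraries and depth, and these values are descriptions.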

How the data were processed

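MuSeq libraries were prepared from 16 tissues, 3 per genotype and tissue. The authors mapped reads to mm10 with Bowtie2 and counted them with HTSeq, and the deposited values are these raw counts per gene symbol, whole numbers without normalization. The sources used here do not name tool versions, the annotation, the strand setting or any use of molecular identifiers. Depth was 11244 to 1658192 counts per library, and replicates differed by more than counting error (chi-square per degree of freedom at least 6.93).

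Groups were taken from the sample labels, and CPM used library totals. Genotypes were compared within each tissue with edgeR 4.0.16 (R 4.3.3), with TMM factors, glmQLFit with robust estimation, genes at 0 in the tissue removed and Benjamini-Hochberg adjustment over all its genes. Over 96 libraries, genes with a count in at least 24 libraries were fitted with a mean of tissue differences and, added after the data were seen, a model of tissue plus 1 genotype term. SEs were computed from the log2 difference and the F statistic. The alternatives tried were scaling by RLE or by library totals, filterByExpr, DESeq2 1.42.0, limma-voom 3.58.1, a joint fit, the replicate number as a block, and leaving out replicates, tissues and libraries under 100000 counts. The scripts were tested on simulated data, and tables were made with Python 3.11.15.

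The members and gene lists were chosen with earlier results of these data known. Genes named are the 10 members, genes past the threshold in other lists, *Cry1*, *Cry2*, the 3 genes most like *Dbp*, *Nr1d1* and *Arntl*, and genes whose exons overlap a member. The other clock genes named for an unadjusted p under 0.05 and the marker lists set beside a result were chosen after their values were seen. Of those genes, 1 is counted but not reported here by name. Exons come from a GENCODE annotation and promoters from RefSeq, both on GRCm38.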

Additional observations from a re-analysis of the deposited data

Results flagged for a closer look

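Of the 9 fitted clock genes, 3 differed in opposite directions in different tissues without overlap of the libraries, against 22.1% of the 12097 genes with a count in at least 24 libraries. *Per2* was higher in *Scx-/-* bone and lower in *Scx-/-* hippocampus (adjusted *p* of variation between tissues 0.730, edgeR). *Nr1d2* was higher in *Scx-/-* liver and muscle and lower in *Scx-/-* lung (adjusted *p* = 0.754, edgeR). *Arntl* was higher in *Scx-/-* rectum and lower in *Scx-/-* kidney and stomach (adjusted *p* = 0.690, edgeR). The test of variation between tissues passed for none of them, and a direct test between the named tissues was not run.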

How the results depend on the processing

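No clock gene passed an adjusted *p* of 0.05 in a single tissue under any of the alternatives. With DESeq2, 7 pairs passed the study's thresholds, 5 of them among the 7 of edgeR. Against 7 pairs at the study's thresholds, 4 passed with filterByExpr (3 of the 7), 2 with the replicate block (both of the 7, *Arntl* in kidney and *Dbp* in rectum), 10 in the joint fit over 32 groups (6 of the 7), and 3 to 7 when a replicate number was left out (1 to 5 of the 7, fewest without *Scx-/-* replicate 3, *Arntl* in kidney). *Arntl* in kidney passed those thresholds under all 12 alternatives, and the other 6 pairs did not pass under 4 to 8, counting 3 pairs that filterByExpr removed. No pairing by replicate number was seen. The correlation of same-numbered deviations was above 0.1 in 0 of 48 pairs (-0.29 to 0.068), and a number was its own best match in 10. This check cannot exclude shared mice or batches. The model of tissue plus genotype called 0 clock genes with the replicate block and 0 to 1 when a replicate was left out: *Nr1d1* without *Scx-/-* replicate 1 (adjusted *p* = 0.0197) and *Tef* without wild-type replicate 3 (adjusted *p* = 0.0494). Over all alternatives of the model of tissue plus genotype, the adjusted *p* ran from 0.0494 to 0.499 for *Tef* and from 0.0197 to 0.621 for *Nr1d1*. The mean of tissue differences called 0 to 1 clock genes when a replicate was left out (*Tef*, adjusted *p* = 0.0274 without wild-type replicate 1), and could test no clock gene without *Scx-/-* replicate 1. Direction turned in the model of tissue plus genotype for *Clock* (log2 -0.70 to 0.10 when a replicate was left out, 0.10 without wild-type replicate 1) and *Npas2* (-0.12 to 0.47, -0.12 without wild-type replicate 1, and -0.051 without libraries under 100000 counts). The cause was not tested. In 34 pairs a group was at 0, in 20 of them (14 of *Per3*) both. The part of depth was not tested.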
